A study of Mus musculus with 4 samples.

Results

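The apelin system is a small peptide hormone system made up of 1 receptor gene, Aplnr, and 2 ligand genes, Apln and Apela. All 3 were measured here in whole mouse lung, among 30713 genes with a probe set of their own. They were listed by name, and their probe sets were chosen by mean level over the 4 arrays, the brightest standing for the gene; since each gene had 1 probe set, that step set nothing aside. The family itself was selected on an earlier analysis of these arrays, in which the large difference of the receptor was known. The receptor's values are therefore given as a description, with no p-value. The ligands' differences come from the same arrays and the same contrast, so that they are no independent support for it.

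The apelin receptor is a G protein-coupled receptor of the endothelium that signals through inhibitory G proteins and arrestins. Apelin, the product of Apln, and the peptide known as Elabela or Toddler, the product of Apela, are cut from precursors and bind the same receptor, where they act on vessel tone, heart contraction and vessel growth. In mouse lung, Aplnr is known as a marker of general capillary cells and Apln as a marker of aerocytes, the large capillary cells across which gas is exchanged.

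The series compared lungs of wild-type C57/BL6 mice (WT) with lungs of transgenic mice labelled SCD, for sickle cell disease, whose strain is given as SCD Tg. Each group has 2 arrays, and all mice were adults of matched age; no treatment is named. The sources used here do not give the transgenes, the genetic background of the SCD line or the sex of the mice. The design text speaks of 2 lungs per group, but whether every array comes from its own mouse is not stated, and p-values then measure only the spread between these samples, which may be technical. Values are log2 expression levels, and differences are SCD minus WT on that scale ± the standard error (SE) of limma, a linear model fitted over all genes. A gene passed the test at an adjusted p below 0.05. Of 9 measured lung epithelial markers, among them the surfactant genes Sftpb (16.71 to 16.85 over the arrays) and Sftpa1 (15.79 to 15.90), 0 rose and 0 fell in limma, with 1 higher and 0 lower at an unadjusted p under 0.05. Over all genes, 10.6% were higher and 6.08% lower at that unadjusted threshold. Sftpc and Scgb1a1 were listed at the same value, 19.93, on every array and give no direction. Subtracting the exon control shift from the SCD arrays made 2 of the 9 pass as lower, and they were these 2 genes of identical values.

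Receptor and main ligand moved in opposite directions: Aplnr was lower and Apln higher in SCD lung, while Apela stayed near the background probes in both groups. The receptor had 9.89 times the level in WT that it had in SCD lung, and apelin transcript was 1.89-fold higher in SCD than in WT lung.

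Aplnr measured 10.05 and 10.61 in WT lung and 6.91 and 7.15 in SCD lung. Both SCD values lay more than 2.9 below the lower WT value, and the groups did not overlap. The group means were 10.33 ± 0.40 in WT and 7.03 ± 0.17 in SCD lung (SD, n = 2 arrays each). The difference was -3.31 ± 0.21, with a 95% interval from -3.85 to -2.76. That interval does not allow for the selection of the family on this difference. The decrease ranked as 1 among those of all 30713 genes, next to that of Glp1r, the glucagon-like peptide 1 receptor gene (-3.31 ± 0.11). The order of these 2 genes is far within their errors. The receptor was also uneven among wild-type lungs: the gap between the WT arrays exceeded that of 93.4% of genes or equalled it. On the SCD arrays its level came close to that of the intron control probes, which are not meant to detect mature transcripts. Of these controls, 39.4% and 34.6% were brighter than Aplnr on the SCD arrays, against 9.13% and 6.51% on the WT arrays. Of 23 antigenomic background probes, 0 were brighter than Aplnr on any array.

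Apln measured 9.54 and 9.52 in WT lung and 10.47 and 10.42 in SCD lung. Both SCD values were above both WT values, and the arrays of each group were close together. Apln rose by 0.92 ± 0.09 (95% interval 0.70 to 1.14; limma adjusted p = 0.0113), from 9.53 ± 0.02 to 10.44 ± 0.04 (SD). Its increase ranked as 640 among all genes, so that many genes rose by more. In the same fit 0.635% of genes were called lower and 2.46% higher; groups in which both SCD arrays lay below or above both WT arrays made up 22.5% and 25.3% of genes. The call of Apln rests on both SCD arrays: without SCD replicate 1 the difference was 0.89 (adjusted p = 0.159) and without SCD replicate 2 it was 0.95 (adjusted p = 0.145), and limma then called 0 genes in all, with 3308 and 3271 at an unadjusted p under 0.05.

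Apela measured 3.86 and 4.09 in WT lung and 3.99 and 4.02 in SCD lung. The groups overlapped, with both SCD values between the WT values. The difference was 0.03 ± 0.14 (adjusted p = 0.948), with a 95% interval from -0.33 to 0.39. Between 88.2% and 90.2% of intron controls and 34.8% to 43.5% of the 23 antigenomic background probes were brighter than Apela, so that its level could not be told apart from background.

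**Figure D1:**
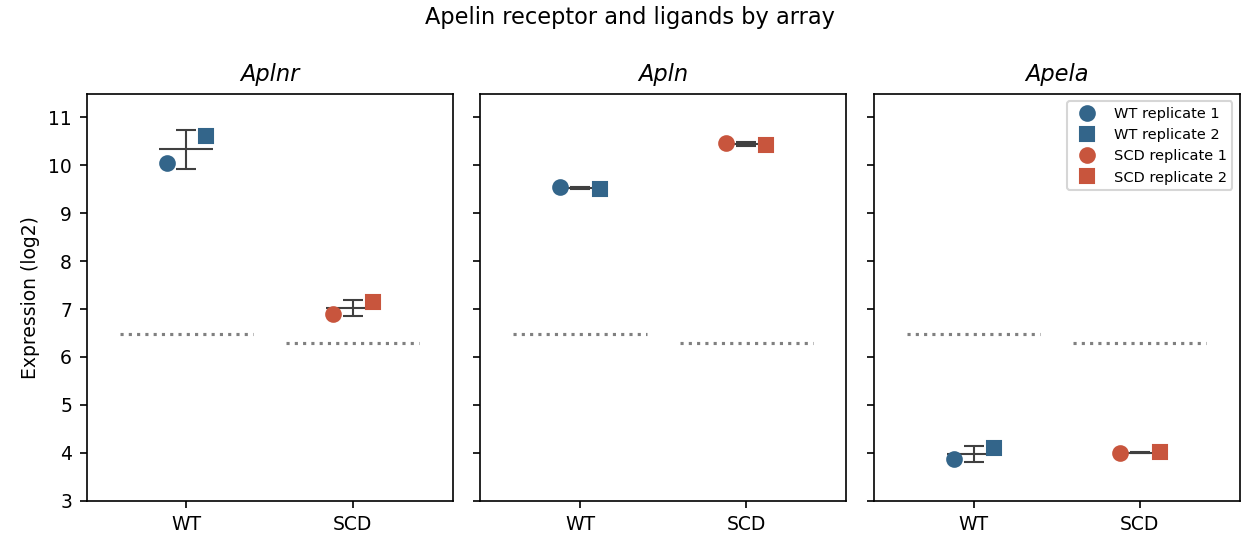
Log2 expression (vertical axis) of Aplnr, Apln and Apela on each array, with circles for replicate 1, squares for replicate 2, horizontal dashes with bars for the group mean ± SD (n = 2), and dotted lines for the mean of the intron control medians of each group. Aplnr drops from 10.05 and 10.61 to 6.91 and 7.15, Apln goes from 9.54 and 9.52 to 10.47 and 10.42, and Apela lies near 4 on every array.

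To set receptor against ligand without comparing the brightness of different probes, the difference between Aplnr and Apln was taken on each array and compared between groups. Relative to the WT mean it was -0.29 and 0.29 in WT and -4.37 and -4.07 in SCD lung. The SCD arrays lay far below the WT arrays, by -4.22 on average. For Aplnr against Apela the change was -3.34. Both changes are given without a test, since they rest on the receptor difference that selected the family, and 2 arrays against 2 allow no exact permutation p below 0.333.

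**Figure D2:**
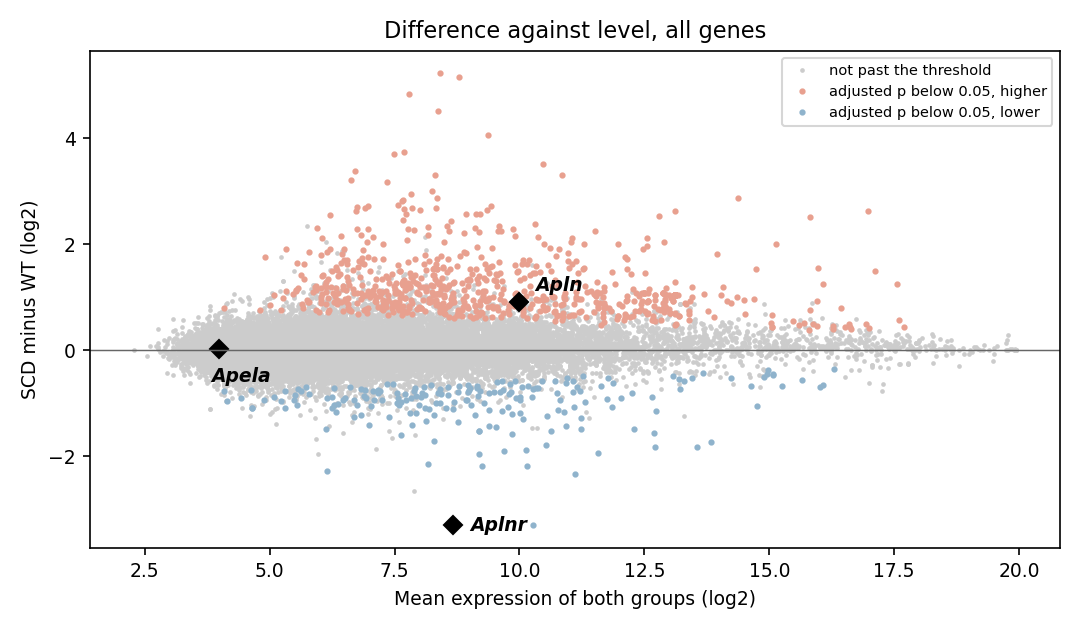
SCD minus WT difference (log2) against the mean level of both groups (log2) for 30713 genes, with genes past an adjusted p of 0.05 in red (higher) and blue (lower) and the apelin genes as black diamonds. Aplnr lies at the lower edge at -3.31, Apln among the higher genes at 0.92 and Apela in the dim part of the plot near 0.

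Enzymes that cut or break down the peptides had differences from -0.52 to 0.11. Of 6 measured genes of this kind, 1 fell, 0 rose and 5 did not pass, with a median difference of -0.18 against 0.002 for all genes. Of all genes, 0.635% passed as lower and 2.46% as higher. Mme, which encodes neprilysin, a membrane peptidase that inactivates apelin, fell by 0.52 ± 0.08 (limma adjusted p = 0.0488). Its values of 11.96 and 12.09 in WT and 11.49 and 11.51 in SCD lung did not overlap, but its call was lost in 4 of 12 other settings, with an adjusted p of up to 0.106. Furin, the gene of a convertase that cuts proproteins at basic sites, had a difference of 0.11 ± 0.11.

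Genes that carry the receptor's signal did not pass in the fit as reported. Among 11 G protein, arrestin and receptor kinase genes, limma called 0, with 2 higher and 0 lower at an unadjusted p under 0.05, against 10.6% and 6.08% of all genes. Gnai1, Gnai2 and Gnai3, the inhibitory alpha subunits through which the receptor couples, differed by 0.39 ± 0.09, 0.23 ± 0.08 and 0.15 ± 0.10, and Arrb1, an arrestin gene, by -0.16 ± 0.09. Gna13, the alpha subunit gene linked to the receptor's action on class II histone deacetylases, differed by 0.07 ± 0.08. Among 15 downstream genes limma called 0 as well, with 2 higher and 2 lower at an unadjusted p under 0.05, again against 10.6% and 6.08% of all genes. These include the endothelial nitric oxide synthase gene Nos3 (0.07 ± 0.11) and the shear stress factor gene Klf2 (0.26 ± 0.08; adjusted p = 0.224). The furthest apart were Hdac4, a class II histone deacetylase gene (0.86 ± 0.20; adjusted p = 0.109), and Mef2c, a factor that such deacetylases bind (-0.45 ± 0.10; adjusted p = 0.0973). Mef2c passed as lower once the exon control shift was subtracted (adjusted p = 0.0374), and Hdac4 higher with the replicate number as a block (adjusted p = 0.034). Hdac4 and Mef2c were named after their values were seen, as were the G protein and arrestin genes.

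Among 11 measured genes known to act upstream of the apelin genes, 3 fell, 0 rose and 8 did not pass (median difference -0.15). The shares of all genes that passed were 0.635% lower and 2.46% higher. Tek, the angiopoietin receptor gene whose activation raises apelin in endothelial cells, measured 12.55 and 12.52 in WT and 10.59 and 10.60 in SCD lung. It fell by 1.94 ± 0.08 (adjusted p = 0.0028). The BMP receptor gene Bmpr2, upstream of apelin in lung endothelium, fell by 0.69 ± 0.06 (adjusted p = 0.0105; 0.0575 without the intensity trend). The hypoxia factor gene Epas1 fell by 0.36 ± 0.05 (adjusted p = 0.0334), a call lost in 4 of 12 other settings with an adjusted p of up to 0.184. Hif1a, whose product induces apelin in hypoxia, lay higher on both SCD arrays but did not pass (0.48 ± 0.09; adjusted p = 0.0702; 0.042 with the dimmer 50% of genes left out). Whether any of these genes bears on the level of Apln was not tested.

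No receptor related to the apelin receptor passed the test. Of 10 genes for receptors that are close in sequence or known to pair with it, limma called 0, with 1 higher and 0 lower at an unadjusted p under 0.05 (10.6% and 6.08% over all genes), and the median difference was -0.01. Agtr1a, the angiotensin II type 1 receptor gene, measured 6.87 and 7.04 in WT and 7.01 and 6.88 in SCD lung, with overlapping groups (-0.01 ± 0.12). Among 11 other receptor genes for vasoactive peptides, 2 fell, 0 rose and 9 did not pass. The shares of all genes were 0.635% lower and 2.46% higher. The 2 that fell were Glp1r, at 11.87 and 11.99 in WT and 8.54 and 8.71 in SCD lung, and Calcrl. Calcrl, the adrenomedullin receptor gene, fell by 0.57 ± 0.06 (limma adjusted p = 0.0154, and 0.0823 without the intensity trend). The endothelin receptor gene Ednrb differed by -0.25 ± 0.09 and did not pass.

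Capillary genes known as markers of the same cells as Aplnr fell in several cases, and among those known from the same cells as Apln 1 rose. Of 11 general capillary markers besides Aplnr, 5 fell, 0 rose and 6 did not pass, and 9 lay lower on both SCD arrays. By sign, 10 differed downward and 1 upward. The upward one was Sema3c, higher on both SCD arrays without passing (0.22 ± 0.08), while the groups overlapped for Cxcl12 (-0.16 ± 0.16). Among all genes, 0.635% passed as lower and 2.46% as higher, and 22.5% lay lower on both SCD arrays. The list's median difference was -0.98, and the largest difference was that of Kit, the stem cell factor receptor gene (-2.18 ± 0.09). Ptprb, an endothelial phosphatase gene, fell by 1.82 ± 0.08, and Gpihbp1, which anchors lipoprotein lipase to capillaries, fell by 1.56 ± 0.09. Of 8 aerocyte markers besides Apln, 1 rose, 0 fell and 7 did not pass, with a median difference of 0.16. The gene that rose was Car4, a membrane carbonic anhydrase gene, at 12.32 and 12.37 in WT and 13.42 and 13.63 in SCD lung (1.18 ± 0.09, limma adjusted p = 0.0078). Of the 8, 7 differed upward and 1 downward. The latter was Ednrb, which lay lower on both SCD arrays without passing (-0.25 ± 0.09). Apln is also known from the tip cells of sprouting vessels; of 8 other tip cell markers 1 fell, 0 rose and 7 did not pass. The one that fell was Esm1, an endothelial proteoglycan gene (-0.76 ± 0.11; adjusted p = 0.0334; 0.0523 with the replicate number as a block, which leaves 0 called). These lists were drawn up with the decreases of several members known, so that their counts describe these arrays only. Tek, which fell, stands on the general capillary and the upstream list. Dll4 and Ednrb also stand on more than 1 list, so that the counts of different lists are not separate.

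The differences of genes shared by all endothelial cells ran from -0.95 to 0.65. Among all genes, 0.635% passed as lower and 2.46% as higher. Of 14 pan-endothelial markers, 2 fell, 0 rose and 12 did not pass, with a median difference of -0.12; 4 fell after quantile normalization, cyclic loess or subtraction of the exon control shift, and 1 fell without the intensity trend, with robust eBayes or with equal array medians. Sox17, an endothelial transcription factor gene, fell by 0.95 ± 0.11 (adjusted p = 0.0191) and Cdh5, the VE-cadherin gene, fell by 0.47 ± 0.08 (adjusted p = 0.049, lost in 4 of 12 other settings with an adjusted p of up to 0.142). The junction gene Pecam1 (0.24 ± 0.10), the VEGF receptor gene Kdr (-0.37 ± 0.11) and the sialomucin gene Emcn (0.20 ± 0.20) did not pass. With the mean of these markers taken off each array, a step chosen after seeing the data, Aplnr differed by -3.17 and Apln by 1.05. With the mean of the general capillary markers taken off instead, Aplnr differed by -2.34 and Apln by 1.88. In whole lung, fewer cells of a type and less RNA per cell cannot be told apart.

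**Figure D3:**
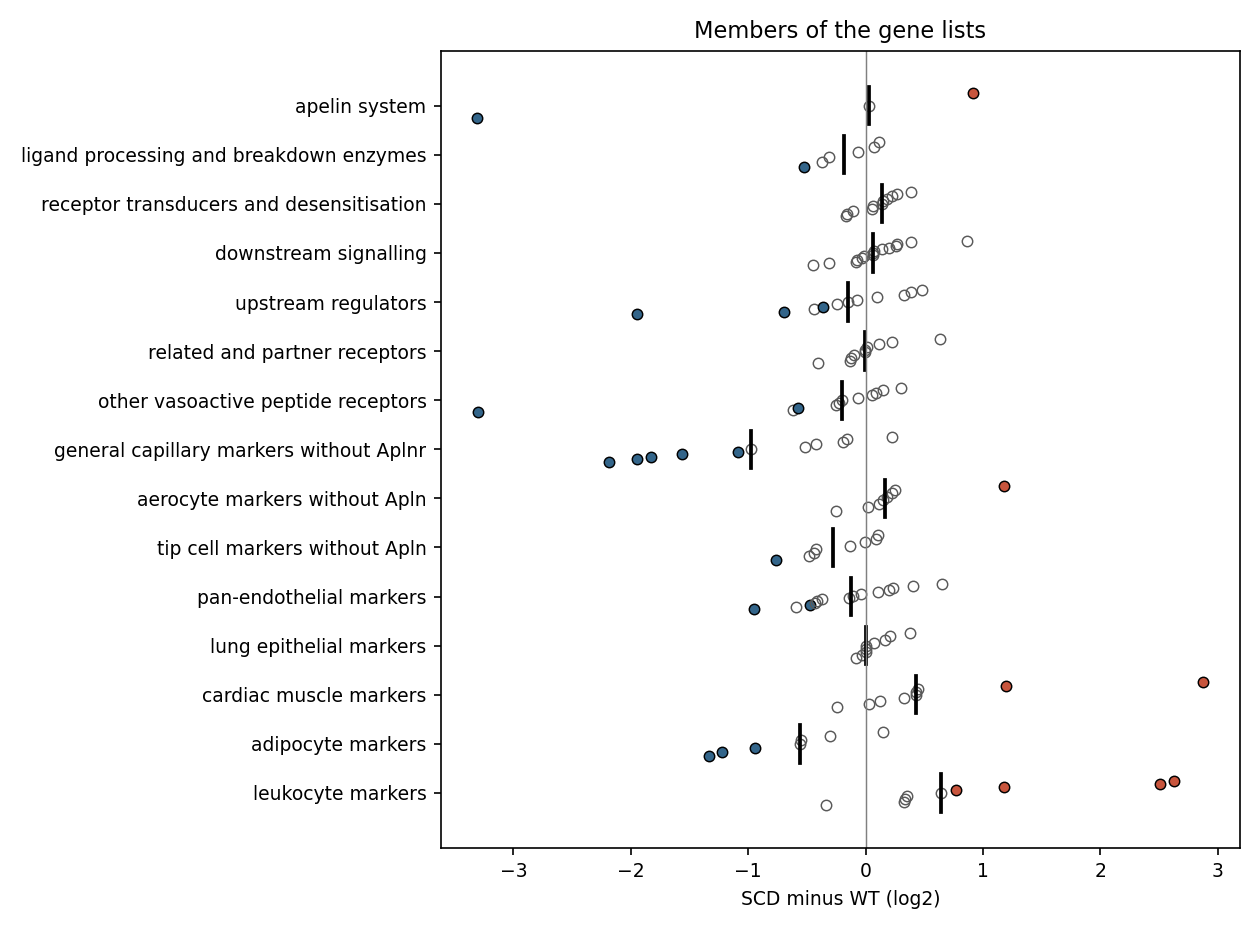
SCD minus WT difference (log2, horizontal axis) of each measured member of 15 gene lists, with filled points past an adjusted p of 0.05 (red higher, blue lower), open points for the others and a black bar at the list's median. The general capillary markers have their median at -0.98, the pan-endothelial markers at -0.12 and the aerocyte markers at 0.16. For Aplnr the fill is no test, since the family was selected on its difference.

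Markers of other cells also moved between the groups. Among all genes, 0.635% passed as lower and 2.46% as higher. Adipocytes are a known source of apelin; of 7 adipocyte markers 3 fell and 0 rose, and their summed level (log2 of the sum of linear values) was 10.76 and 10.96 in WT and 9.84 and 9.77 in SCD lung. Adipoq, the adiponectin gene, fell by 1.33 ± 0.14 and Fabp4 fell by 1.22 ± 0.10. The third was Retn, which missed the threshold in 2 of 12 other settings (limma adjusted p of up to 0.0602). Of the 7 adipocyte markers, 6 differed downward and 1 upward. Plin1 (-0.30 ± 0.11) and Lep (0.15 ± 0.13) did not pass. Of 9 cardiac muscle markers 2 rose and 0 fell, Nppa by 2.88 ± 0.13 and the atrial light chain gene Myl7 by 1.20 ± 0.10. The summed level was 13.87 and 13.77 in WT and 14.68 and 14.76 in SCD lung, where Myl7 was the brightest member (13.97 and 14.15). The list's median difference was 0.43, with 8 members upward and 1 downward. Myh6 (0.13 ± 0.09), Ryr2 (0.03 ± 0.12) and Myh7 (-0.25 ± 0.12) did not pass. Of 9 leukocyte markers 4 rose and 0 fell, with S100a8 at 2.62 ± 0.16. By sign, 8 differed upward and 1 downward, which was Itgax (-0.34 ± 0.13, not passing). The summed level of the 9 was 16.11 and 16.49 in WT against 18.74 and 18.90 in SCD lung. That sum was carried by S100a8 and S100a9 (2.51 ± 0.11), while the list's median difference was 0.64, the pan-leukocyte gene Ptprc differed by 0.33 ± 0.08 without passing and Cd3e, the T cell receptor complex gene among the 4, missed the threshold in 4 of 12 other settings. The part of adipocytes, cardiac tissue and leukocytes in the results for Aplnr and Apln was not tested.

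Apln lies on chromosome X, and the sex of the mice is not given. Xist, which is expressed from the inactive X of females, measured 16.75 to 16.81 over the 4 arrays, and the Y-linked gene Eif2s3y 4.81 to 4.99. Neither passed (0.03 ± 0.05 and -0.08 ± 0.12), and the groups overlapped for both. The Y-linked genes Kdm5d (4.36 to 4.51) and Uty (4.53 to 4.68) lay lower on both SCD arrays and did not pass (-0.09 ± 0.12 and -0.10 ± 0.12). On every array the Y-linked genes named here lay below the intron control median (6.27 to 6.48). All these genes were named after their values were seen.

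Among 19114 other RefSeq genes without predicted or clone-derived names, the one nearest to Aplnr in its pattern over the 4 arrays was Glp1r. Nearness was measured as the Euclidean distance between log2 values, each gene centred on its own mean, and came to 0.32 for Glp1r. The next were the small nucleolar RNA gene Snord14e at 1.15, Kit at 1.20, Rnf144a, a ubiquitin ligase gene, at 1.20 and Fabp1, a fatty acid binding protein gene, at 1.38. A clear gap thus separated Glp1r from the other genes compared. Nearest to Apln were Igfbp2, which encodes an insulin-like growth factor binding protein (0.04), Wfdc1 (0.05) and Nek5 (0.06), and nearest to Apela were Srsf11, Trap1a and Arid5b, each at about 0.01. With 4 arrays in 2 groups, such a distance mostly reflects the size of the group difference, and for Apela only scatter between arrays.

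**Figure D4:**
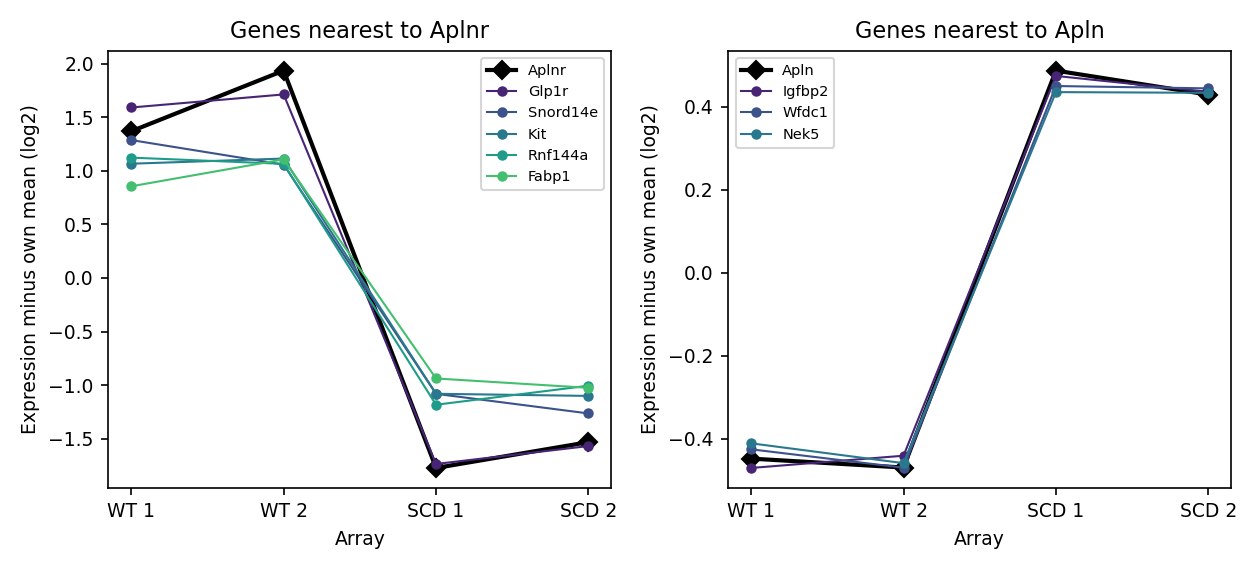
Log2 expression minus each gene's own mean (vertical axis) on the 4 arrays for Aplnr with its 5 nearest genes (left) and Apln with its 3 nearest (right). Glp1r follows Aplnr within 0.32 in Euclidean distance, while the other genes on the left lie at 1.15 to 1.38.

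Over 12 other settings of normalization, filtering and variance model, Aplnr ranged from -3.52 to -3.31 and Apln from 0.71 to 0.92. Apln stayed past the threshold in each (limma adjusted p from 0.0078 to 0.0253). Settings that changed only the filter, the fitted model or the probe set summary could not move these sizes in this design. Under renormalization, Aplnr was -3.39 (quantile), -3.32 (equal array medians), -3.36 (cyclic loess) and -3.52 (exon control shift subtracted). Apln was 0.81, 0.90, 0.83 and 0.71 in that order. With each array left out in turn, Aplnr ranged from -3.59 to -3.02 and Apln from 0.89 to 0.95.

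**Figure D5:**
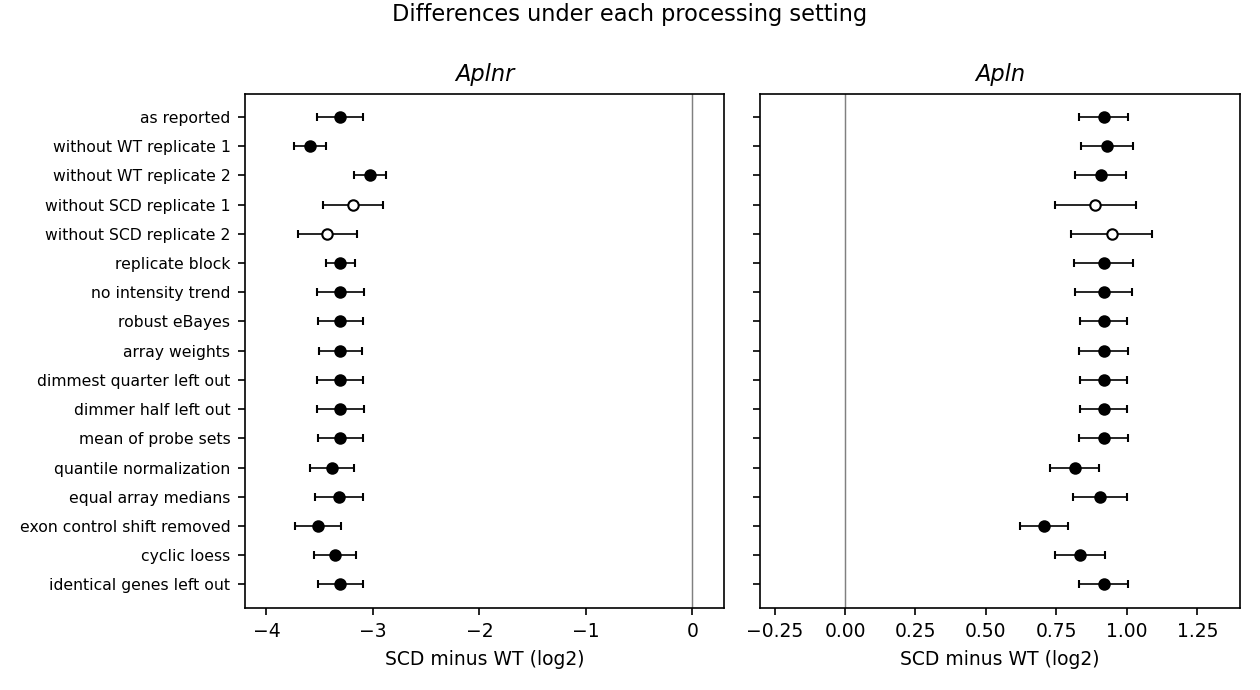
SCD minus WT difference ± SE (log2, horizontal axis) of Aplnr and Apln as reported, under 12 other settings and with each array left out, with filled points past an adjusted p of 0.05 and open points not. For Aplnr the fill is no test, since the family was selected on its difference. The open points are those without SCD replicate 1 or SCD replicate 2; the plotted values of Aplnr lie between -3.59 and -3.02 and those of Apln between 0.71 and 0.95.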

How the data were processed

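Whole lung RNA was measured on 2 WT and 2 SCD Affymetrix arrays. The deposited table gives each probe set 1 value on each array. Partek, RMA and Affymetrix Expression Console were used per the submitters' processing notes, which give no versions or roles. The authors' log2 scale is not stated and was inferred from the range of the table, 1.72 to 19.93. Per the labels' protocols, TRIzol was used for extraction and a 3' in vitro transcription kit for labelling. Array titles gave the groups.

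After symbols of the platform annotation had been brought up to date with the RefSeq table of GRCm38.p6, 31269 of 65956 transcript clusters had 1 gene, 1481 several and 33206 none. The probe set with the highest mean stood for each of 30713 genes. The fit was limma 3.58.1 in R 4.3.3 (lmFit, eBayes with an intensity trend, group as the only term), two-sided, with Benjamini-Hochberg adjustment over all genes; scripts were tested on simulated data. The number of arrays limits the precision. Members and lists were chosen with earlier results of these data known. Genes were named by a rule: the 3 members, up to 4 called members of each list with the smallest p, a fixed set of further genes and the genes nearest in pattern; others are marked, or stand as list examples chosen after their values were seen. Some genes under the rule are not printed. Same-numbered arrays were not treated as pairs: no label says that they share a litter or day, and their deviations from the group means correlated at -0.0023. No protein sequences were used here.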

Additional observations from a re-analysis of the deposited data

How the results depend on the processing

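The number of arrays is the main limit: with each array left out in turn, Aplnr ranged from -3.59 to -3.02, Apln from 0.89 to 0.95 and Apela from -0.0861 (without WT replicate 1, a change of sign) to 0.145, the change of Aplnr relative to Apln from -4.52 to -3.93, the genes called from 0 to 786 (952 with all arrays; 508 without WT replicate 1 and 0 without either SCD array) and the list genes called from 0 to 17 (23 with all arrays). Apln missed the threshold without either SCD array, where the lone SCD array was assumed to vary like the WT arrays. The replicate number as a block cannot move a difference in this design, so Aplnr was again -3.31 and Apln 0.92 (limma adjusted p = 0.0209). With that block Esm1 missed the threshold (adjusted p = 0.0523), as did Mme, Cd3e and Retn. Hdac4 then passed (adjusted p = 0.034), and 974 genes were called. Subtracting the exon control shift (0.21) from both SCD arrays moved the median of all genes to -0.21, Apela to -0.18 and Apln to 0.71. Of the calls, 44.2% were then higher, against 79.5% as reported and 64.4% after quantile normalization. The intron controls differed the other way, by -0.19, so that no single shift fits both classes of control. Apela was absent from both filters on dim genes. Of the 23 list genes called, 15 kept their call in all 12 settings that keep every array, and 8 lost it in 1 or more. The values of Aplnr and Apln relative to endothelial marker means (-3.17 and 1.05) and general capillary marker means (-2.34 and 1.88) were added after seeing the data and have no test.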

Other observations

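The genes next to the apelin genes on their chromosomes mostly did not pass the test. Of all genes, 0.635% passed as lower and 2.46% as higher. Among the 5 nearest measured protein-coding genes on each side of Aplnr on chromosome 2, in the order of the RefSeq table, 0 of 10 passed in limma, with differences from -0.25 to 0.97. The highest was Prg2, an eosinophil granule protein gene (0.97 ± 0.21; adjusted p = 0.102). Around Apela on chromosome 8, 0 of 10 passed, with differences from -0.42 to 0.41.

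Around Apln, 1 of 10 neighbours passed, against 0.635% lower and 2.46% higher among all genes. It was Xpnpep2, the nearest on one side, which encodes a membrane-bound aminopeptidase that cuts bradykinin. Xpnpep2 measured 5.85 and 5.97 in WT and 7.10 and 7.32 in SCD lung, so that the groups did not overlap, and it rose by 1.30 ± 0.13 (adjusted p = 0.0128). The WT values lay below the intron control medians of those arrays (6.48 and 6.47). The other 9 neighbours of Apln differed by -0.25 to 0.19. The neighbours were looked up after the values of the apelin genes were seen.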
